A study of Mus musculus with 10 samples.

Results

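The comparison described here set 3 double-null libraries against 3 Nrf2-null libraries, to show what loss of the miR-144/451 microRNA cluster did to the transcriptome of mouse erythroblasts labelled as lacking Nrf2. They are 6 of the 10 libraries of the study, taken by their genotype labels, and every gene of the raw count table was considered. Erythroblasts are the nucleated precursors of red blood cells. Per the labels the mice were C57BL/6, the cells were spleen erythroblasts isolated with Miltenyi Biotec beads, and the spleens were taken on day 11 after 5-FU, a drug that kills dividing blood precursors. The Nrf2-null group has the genotype Nrf2-/- and the double-null group the genotype Nrf2/miR-144/451-/-, so by the labels both groups lack Nrf2, and both received 5-FU. The other 4 libraries, 2 wild type and 2 miR-144/451-null, entered the fit and serve for the test of whether the cluster's loss acted differently with Nrf2 present. The labels do not say which mouse each library came from, whether animals were pooled or how the alleles were made, so p-values measure only the spread between these libraries.

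The miR-144/451 cluster is a pair of microRNA genes in a single transcript that the factor Gata1 switches on as red cell precursors mature. MicroRNAs pair through their seed with sites in the 3' UTR of messenger RNAs and lower the stability or translation of those messages. Nrf2, encoded by Nfe2l2, switches on genes for glutathione synthesis, peroxide removal and NADPH supply. Late erythroblasts stop dividing, fill with hemoglobin, lose mitochondria and ribosomes, and expel the nucleus.

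The mature microRNAs of the cluster are shown first because their seeds, positions 2 to 8 in capitals, define the sites counted below. The sequences are from RefSeq, build GRCm38.p6, and lie on the plus strand at chr11:78073047-78073066 (miR-144-3p), chr11:78073010-78073032 (miR-144-5p) and chr11:78073186-78073207 (miR-451a).
miR-144-3p: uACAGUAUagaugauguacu
miR-144-5p: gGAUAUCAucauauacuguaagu
miR-451a: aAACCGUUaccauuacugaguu
Mir144, the gene of the cluster that the count table could check, had 9, 13 and 16 counts in Nrf2-null libraries 1 to 3 and 0 counts in each double-null library. With a floor of 3 counts per library this is at least 4.21-fold lower in the double-null group. Mir451a had 0 counts in all 6 libraries and so checks nothing. Nfe2l2 was counted at 46.1, 50.2 and 55.6 CPM (counts relative to the library total, adjusted by TMM factors) in the Nrf2-null libraries and at 62.7, 52.7 and 49.2 CPM in the double-null libraries. The wild-type libraries were at 58.2 and 63.5 CPM, so these counts show little loss of Nfe2l2 under either Nrf2-null label. A count over the whole gene does not check a deletion of part of it.

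The 6 libraries held 13746381 to 15131036 counts each. Globin genes took 7.08% to 9.49% of counts in the Nrf2-null libraries and 9.86% to 12.2% in the double-null libraries. The 14 erythroblast markers in the table, among them globins, Alas2 and Klf1, summed to 117750 to 151780 CPM in the Nrf2-null libraries and 134260 to 164270 CPM in the double-null libraries, with 4 of them lower and none higher, so the defining markers of the labelled cell type were abundant in every library. Markers of other spleen cells were present as well, and none of the listed markers was at 0 in all 6 libraries. Summed neutrophil markers were 694, 1444 and 213 CPM in Nrf2-null libraries 1 to 3 and 1331 to 1441 CPM in the double-null libraries. None of their 13 genes passed the test, but 12 had a positive log2 fold change (double-null over Nrf2-null, median 0.84). Summed mast cell and basophil markers were 29.1, 51.05 and 8.49 CPM against 23.3, 81.2 and 42.7 CPM. None of the 7 tested passed, and all 7 were positive (median 1.25). Xist and Y-linked counts read as female in double-null library 3 and as male in the other 5. They read as female in both wild-type libraries and as male in both miR-144/451-null libraries, so with Nrf2 present cluster status and sex cannot be told apart. Nrf2-null library 3 had the lowest correlation with its own group (Spearman's rho 0.968 to 0.972).

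Of 14110 genes tested, 3850 (27.3%) passed an adjusted p of 0.05, with 2025 (14.4%) higher and 1825 (12.9%) lower in the double-null libraries. Adjusted p values throughout are from edgeR's quasi-likelihood test over all 10 libraries with Benjamini-Hochberg adjustment over all tested genes, and log2 fold changes (double-null over Nrf2-null) carry their standard error, with n = 3 libraries a group. Of the called genes, 1631 (11.6% of those tested) differed at least 2-fold, 620 higher and 1011 lower. The groups did not overlap for 6378 genes (45.2%). Genes named below were mostly chosen by the smallest p in their gene group, or by the largest change among genes without overlap. A gap between groups or close replicates in a named gene is therefore no result. The median log2 fold change of all tested genes was 0.02, with the middle of the distribution between -0.52 and 0.44. These are bulk libraries, so fewer cells of a type and less RNA per cell cannot be told apart in any value below.

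The genes with the largest rises were of mixed function. Fgfrl1, a receptor-like protein that binds fibroblast growth factors without a kinase domain, stood at 4.10, 2.33 and 3.06 CPM in Nrf2-null libraries 1 to 3 and at 75.9, 80.6 and 84.5 CPM in double-null libraries 1 to 3. The log2 fold change was 4.66 ± 0.20 (adjusted p 7.14e-07). Trove2, the Ro60 protein that binds misfolded small RNAs, was at 2.89, 3.53 and 2.37 CPM against 41.0, 56.1 and 38.3 CPM, a log2 fold change of 3.94 ± 0.33 (adjusted p 5.32e-05). Sdsl, a serine dehydratase relative, was at 3.10, 2.86 and 1.84 CPM against 33.7, 27.6 and 45.6 CPM, a log2 fold change of 3.77 ± 0.27 (adjusted p 4.13e-05). The largest rises were chosen among genes without overlap between groups, so their separation is no result. Cdk5rap1, an enzyme that modifies mitochondrial tRNAs, rose by 3.81 ± 0.49 (adjusted p 0.000663), and Tubb3, a beta tubulin best known from neurons, by 4.75 ± 0.82 (adjusted p 0.00316). Capn11, a calpain protease gene, had the largest fitted rise but no common level, with 13.7 and 19.1 CPM in double-null libraries 1 and 3 and 0.53 CPM in library 2, against 0, 0.23 and 0 CPM. Rnf128, a ubiquitin ligase, was at 4.64, 5.86 and 0.61 CPM against 41.2, 39.6 and 62.6 CPM (log2 fold change 3.68 ± 0.57, adjusted p 0.00178), and Nrf2-null library 3 was again the lowest.

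Among the genes with the largest falls, 3 belong to the interferon response. Rtp4, an interferon-induced chaperone of membrane receptors, was at 50.1, 16.3 and 55.0 CPM in the Nrf2-null libraries and at 1.04, 1.75 and 2.81 CPM in the double-null libraries. Usp18, which strips the ubiquitin-like protein Isg15 from its targets, was at 67.3, 48.4 and 58.0 CPM against 5.50, 10.9 and 5.12 CPM. The largest falls were chosen among genes without overlap between groups. For these 2 genes the log2 fold changes were -4.43 ± 0.80 (adjusted p 0.00433) and -3.02 ± 0.53 (adjusted p 0.0034). Artn, a ligand of the Gdnf receptor family, fell by 3.02 ± 0.33 on the log2 scale (adjusted p 0.000157). Mxd3, a partner of Max that is made in dividing cells, stood at 109, 98.0 and 143 CPM against 15.1, 11.2 and 19.0 CPM (log2 fold change -2.94 ± 0.23, adjusted p 4.17e-05). Stag3, a cohesin subunit, was at 16.7, 16.2 and 15.1 CPM against 2.53, 1.82 and 2.31 CPM (log2 fold change -2.84 ± 0.23, adjusted p 4.67e-05). Oasl1, a relative of the antiviral oligoadenylate synthetases, fell by 2.75 ± 0.49 (adjusted p 0.00369). In Mxd3 and Stag3 every double-null value lay far below the least Nrf2-null value. Hbb-y, an embryonic beta-like globin, had 20.5, 8.65 and 0.77 CPM in Nrf2-null libraries 1 to 3 and 0.30 to 0.72 CPM in the double-null libraries, so its fall rested on Nrf2-null libraries 1 and 2.

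Sites that match the seeds were counted in the longest annotated 3' UTR (GENCODE M21, build GRCm38) of the 11736 tested genes that have one, 83.2% of those tested. The site AACGGTT, which pairs with the miR-451a seed, occurred in 69 of 1863 higher genes (3.70%), in 23 of 1618 lower genes (1.42%) and in 2.05% of genes not called. The site ATACTGT, which pairs with the miR-144-3p seed, occurred in 18.2% of higher genes, 13.5% of lower genes and 12.9% of genes not called. The site TGATATC of miR-144-5p occurred in 6.82%, 6.68% and 6.05% of them. Median 3' UTR length was 1330 bases for higher genes, 1424 for lower genes and 1352 for genes not called. A site is a match of letters and not a measured binding event.

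Windows around the sites of named genes, with the 7 matching bases in capitals, show the pairing letters in genes that rose and in genes that fell.
Rac1, miR-451a: taaagctttttAACGGTTaatttctgtcaa
Bex4, miR-451a: tgtttccacttAACGGTTtctatgtaaaat
Gabarapl1, miR-451a: ggccgtgcgggAACGGTTatgattgccagc
Trove2, miR-144-3p: aagtcttcaggATACTGTagcttcctctgt
Cdk5rap1, miR-144-3p: gtaagcagcatATACTGTtcttacagggga
Eif5a2, miR-144-3p: cccaagtcgtaATACTGTaatacatacaaa
Slc35a3, miR-144-3p: ttatggagaatATACTGTaatttacaactg
Cenpf, miR-144-3p: gaacgtgagacATACTGTagaatgttggtc
Myc, miR-451a: agagtaaggagAACGGTTccttctgacaga
Rac1, a small GTPase that drives actin remodelling and acts in enucleation, was at 91.2, 81 and 99.4 CPM in the Nrf2-null libraries and at 303, 292 and 276 CPM in the double-null libraries (log2 fold change 1.68 ± 0.12, adjusted p 4.13e-05). Bex4, a small protein that binds tubulin, was at 26.6, 25.6 and 16.2 CPM against 271, 210 and 257 CPM (log2 fold change 3.43 ± 0.20, adjusted p 7.82e-06), with 59.9% of its 31-base stretches also present in another gene, so its level is uncertain. Gabarapl1, an autophagosome protein, rose by 1.52 ± 0.20 (adjusted p 0.000419). Eif5a2, an elongation factor form of eIF5A, rose by 1.79 ± 0.22 (adjusted p 0.000356), and Slc35a3, a Golgi sugar-nucleotide carrier, by 1.66 ± 0.13 (adjusted p 4.15e-05). Cenpf and Myc carry sites too and were lower, as described below. Nfe2l2 carries 2 miR-144-3p sites and showed a log2 fold change of 0.12 ± 0.13 (adjusted p 0.534).

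**Figure D1:**
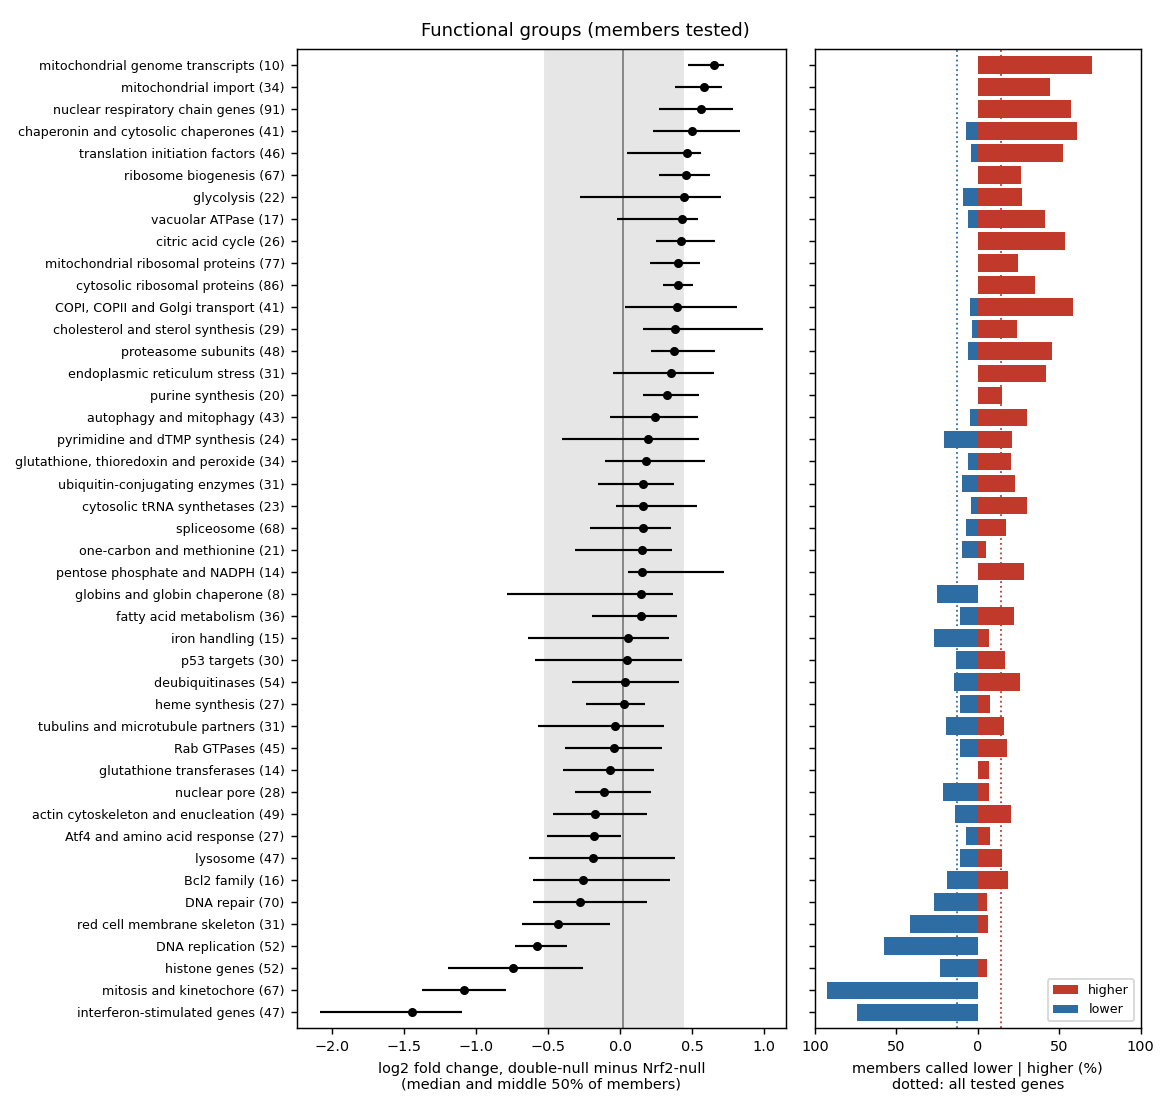
For each functional gene group, the left panel shows the median log2 fold change (double-null over Nrf2-null) of its tested members on the x axis. The right panel shows the percentages of members called higher and lower, with dotted lines for all tested genes. Mitosis and kinetochore genes (median -1.08) and interferon-stimulated genes (median -1.45) lie at the negative end. Mitochondrial, translation initiation, ribosome and cytosolic chaperone groups lie between 0.40 and 0.65, and cytosolic tRNA synthetases at 0.16.

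Genes of cell division were lower. Of 67 tested genes of mitosis and the kinetochore, the machinery that attaches chromosomes to the spindle, 62 fell and none rose, with a median log2 fold change of -1.08 against 0.02 over all genes. Cenpl, a kinetochore protein, was at 157, 152 and 200 CPM in the Nrf2-null libraries and at 47.7, 37.6 and 46.0 CPM in the double-null libraries (log2 fold change -1.96 ± 0.15, adjusted p 4.13e-05). Cenpf, which joins kinetochores in late G2, was at 870, 767 and 953 CPM against 263, 222 and 197 CPM (log2 fold change -1.92 ± 0.16, adjusted p 5.32e-05). Both were named for a small p, so the gap between their groups is no result. Of the 67 members 63 did not overlap between groups, where 45.2% of all tested genes did not overlap. Kif18a, a motor that trims spindle microtubules, fell by 1.76 ± 0.14 (adjusted p 4.22e-05), and the mitotic kinase Aurka by 1.26 ± 0.11 (adjusted p 5.32e-05). The number of mitosis genes called lower stayed between 60 and 62 when any 1 of the 6 libraries was left out. Of 31 ubiquitin-conjugating enzyme genes 3 were lower (9.68%), namely Ube2c, Ube2s and Ube2t, and 7 were higher (22.6%), with a median of 0.16. All tested genes were lower in 12.9% and higher in 14.4%, and 4 of these enzymes were higher without Nrf2-null library 1. Ube2c and Ube2s are the enzymes that serve the anaphase-promoting complex, and Ube2c was at 1085, 830 and 906 CPM against 422, 366 and 329 CPM. Of 31 tubulin and microtubule partner genes 6 fell (19.4%) and 5 rose (16.1%), Tubb3 among the latter, with a median of -0.03. The higher count was 2 without Nrf2-null library 1 and 3 without Nrf2-null library 2 or any 1 double-null library. Tubulin subunits Tubb5 (log2 fold change -1.34 ± 0.14) and Tuba1c (-1.69 ± 0.17) were among those that fell. Of the 31-base stretches of Tuba1c, 55.3% are shared with other genes.

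Among 52 tested DNA replication genes 30 fell (57.7%) and none rose, against 12.9% and 14.4% of all tested genes. Their median log2 fold change was -0.58. Orc1, the largest subunit of the origin recognition complex, was at 98.7, 82.8 and 70.8 CPM against 31, 23.3 and 29.8 CPM (log2 fold change -1.59 ± 0.18, adjusted p 0.000177). Dbf4, which activates the Cdc7 kinase at origins, fell by 1.16 ± 0.13 (adjusted p 0.000202), and Cdc7 itself by 0.97 ± 0.15 (adjusted p 0.00118). The count of lower replication genes was 18 without double-null library 1 and 18 without double-null library 2, and 38 in the male libraries alone. Of 70 DNA repair genes 19 fell (27.1%) and 4 rose (5.71%), with a median of -0.28. Rad51c, a factor of homologous recombination, was at 26.8, 30.4 and 26.5 CPM against 7.58, 6.31 and 7.71 CPM (log2 fold change -1.95 ± 0.17, adjusted p 5.41e-05). Neil3, a glycosylase of S phase, fell by 1.67 ± 0.16 (adjusted p 8.54e-05) and Brca2, which acts in homologous recombination, by 1.61 ± 0.14 (adjusted p 5.32e-05). Histone genes were 12 lower (23.1%) and 3 higher (5.77%) of 52. Of them 7 were lower without Nrf2-null library 1, 6 lower without double-null library 2 and 1 higher without Nrf2-null library 2. H2afx, the histone variant phosphorylated at DNA breaks, stood at 286, 170 and 260 CPM against 72.4, 56.9 and 76.4 CPM, while the linker histone gene Hist1h1c rose, at 236, 171 and 199 CPM against 599, 560 and 410 CPM (log2 fold change 1.37 ± 0.21, adjusted p 0.000903). Of 24 pyrimidine genes 5 were lower and 5 higher, 20.8% each way. The lower ones were the nucleotide salvage and reduction genes Dck, Tk1, Rrm2, Rrm1 and Tyms, and the higher ones Uck1, Uck2, Cmpk1, Nt5m and Nt5c. The higher count was 3, 2 and 3 without Nrf2-null library 2, Nrf2-null library 3 and double-null library 3. Dck, the kinase that starts deoxycytidine salvage, was at 530, 553 and 590 CPM against 197, 151 and 203 CPM (log2 fold change -1.60 ± 0.15, adjusted p 7.85e-05). Dck was named for a small p, so the gap is no result.

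Promoters of these genes were searched on both strands in windows of 300 bases, 250 before and 50 after the start, for the 9769 tested genes with a RefSeq promoter in GRCm38.p6. The cell cycle homology element TTTGAA, the letters bound by repressor complexes of resting cells, occurred in 38 of 59 mitosis promoters (64.4%), in 5 of 14 E2f family promoters (35.7%) and in 12.3% of all promoters. It occurred in 18.6% of promoters of lower genes and 9.83% of those of higher genes. CCAAT occurred in 71.2% of mitosis promoters and 38.9% of all. The E2f letters TTTNGCGC occurred in 9 of 43 DNA replication promoters (20.9%) and in 2.50% of all. A match is a description of letters and no evidence of binding. Stretches of 3 promoters of genes that fell are printed with the cell cycle homology letters (either strand) in capitals. They lie at chr1:161070580-161070635 on the plus strand (Cenpl), chr2:164769875-164769928 on the plus strand (Ube2c) and chr7:48881597-48881641 on the minus strand (E2f8).
Cenpl: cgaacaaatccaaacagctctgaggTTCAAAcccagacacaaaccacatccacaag
Ube2c: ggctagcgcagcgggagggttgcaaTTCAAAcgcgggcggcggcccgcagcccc
E2f8: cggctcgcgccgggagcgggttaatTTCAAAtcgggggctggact

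Mitochondrial genes were higher, to be read against 14.4% higher and 12.9% lower of all tested genes. Of 91 nuclear genes of the respiratory chain, the complexes that make ATP from oxygen, 52 rose and none fell, with a median log2 fold change of 0.56. Atp5g2, a subunit of the ATP synthase ring, was at 14.2, 17.5 and 13 CPM in the Nrf2-null libraries and 46.2, 40.2 and 57.7 CPM in the double-null libraries, with 40.2% of its 31-base stretches shared with other genes. Ndufa6, a complex I subunit, was at 31.6, 35.5 and 24.8 CPM against 79.3, 72.5 and 73.2 CPM (log2 fold change 1.29 ± 0.15, adjusted p 0.000186). The groups did not overlap in either gene. Uqcrc2, a core subunit of complex III, rose by 1.25 ± 0.14 (adjusted p 0.000152). Of the 10 tested transcripts of the mitochondrial genome 7 rose and none fell (median 0.65), and mitochondrial transcripts took 0.84% to 1.02% of Nrf2-null and 1.22% to 1.41% of double-null counts. Of 26 citric acid cycle genes 14 rose and none fell (median 0.42). Of 34 genes of mitochondrial protein import 15 rose and none fell (median 0.58), and 9 were higher without Nrf2-null library 3. Pmpcb, a subunit of the protease that removes import signals, rose by 1.36 ± 0.13 (adjusted p 8.39e-05). Mitochondrial ribosomal protein genes numbered 19 higher and 0 lower of 77 (median 0.40), with 8, 9 and 10 higher without Nrf2-null library 1, Nrf2-null library 3 and double-null library 3.

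Genes of protein synthesis and folding were also higher, to be read against 14.4% higher and 12.9% lower of all tested genes. Of 46 translation initiation factor genes 24 rose and 2 fell (median 0.46), with 15 higher without double-null library 3. Eif4g2, a scaffold for cap-independent initiation, was at 819, 814 and 910 CPM in the Nrf2-null libraries and at 1708, 1436 and 1734 CPM in the double-null libraries (log2 fold change 0.94 ± 0.14, adjusted p 0.000758). Eif4g2 was named for a small p, so the gap is no result. Cytosolic ribosomal protein genes numbered 30 higher and 0 lower of 86 (median 0.40), but 8, 6, 19 and 13 were higher without Nrf2-null library 1, Nrf2-null library 3, double-null library 1 and double-null library 3. Of 67 ribosome biogenesis genes 18 rose and none fell (median 0.46), with 11, 10 and 11 higher without Nrf2-null library 1, Nrf2-null library 3 and double-null library 3. Of 41 cytosolic chaperone genes 25 rose and 3 fell (median 0.50). Cct7, a subunit of the ring that folds actin and tubulin, was at 152, 168 and 138 CPM against 323, 343 and 369 CPM (log2 fold change 1.17 ± 0.14, adjusted p 0.000211). The 3 lower chaperones were Dnajb1, Hspa4l and Dnajb4, and Dnajb1, a heat-inducible partner of Hsp70, stood at 182, 184 and 251 CPM against 108, 95.4 and 108 CPM. Of 31 endoplasmic reticulum stress genes 13 rose and none fell (median 0.36), with 8 higher without Nrf2-null library 1, double-null library 1 or double-null library 2, and Atf6, a stress sensor of that organelle, rose by 0.79 ± 0.19 (adjusted p 0.0101). The Atf4 and amino acid response list had 2 higher and 2 lower of 27 members (7.41% each, under the shares of all tested genes) and a median of -0.18. With 1 of the 10 libraries left out its higher count was 0 or 1 in 8 fits, and its lower count was 6 without Nrf2-null library 3, 1 without double-null library 2 and 0 without Nrf2-null library 1, Nrf2-null library 2 or double-null library 3.

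Of 48 proteasome genes 22 rose (45.8%) and 3 fell (6.25%), against 14.4% and 12.9% of all tested genes (median 0.37). Psmb4, a beta subunit of the core, was at 90.4, 102 and 97.3 CPM in the Nrf2-null libraries and at 188, 165 and 199 CPM in the double-null libraries (log2 fold change 0.93 ± 0.12, adjusted p 0.000391). Psmd6, of the regulatory cap, was at 67.1, 65.1 and 63.6 CPM against 120, 121 and 124 CPM (log2 fold change 0.90 ± 0.12, adjusted p 0.000506). Both were named for a small p, which favours replicates that agree. The 3 lower genes were Psmb9 (log2 fold change -1.55), a catalytic subunit of the immunoproteasome that interferon induces, the inhibitor gene Psmf1 (-0.67) and the assembly chaperone gene Psmd5 (-0.51). Of 54 deubiquitinase genes 14 rose (25.9%) and 8 fell (14.8%), the latter share close to that of all tested genes. The lower count was 5 without Nrf2-null library 3. Usp3, which removes ubiquitin from histones, was at 29.9, 28.9 and 27.4 CPM against 109, 122 and 75 CPM.

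Genes of COPI, COPII and Golgi transport, of the vacuolar ATPase and of autophagy were called higher more often than all tested genes. Of 41 genes of COPI, COPII and Golgi transport 24 rose and 2 fell (median 0.39), with 14 higher without Nrf2-null library 1 and 1 lower without any 1 of Nrf2-null libraries 1 and 2 and double-null libraries 1 and 2. Copa, a coat subunit of vesicles that return to the endoplasmic reticulum, was at 106, 106 and 103 CPM in the Nrf2-null libraries and at 288, 277 and 286 CPM in the double-null libraries (log2 fold change 1.44 ± 0.11, adjusted p 4.13e-05). Copa was named for a small p, which favours a small spread beside the gap. Arf1, the GTPase that recruits that coat, was at 163, 165 and 185 CPM against 359, 395 and 388 CPM (log2 fold change 1.15 ± 0.12, adjusted p 0.000112). Of 17 genes of the vacuolar ATPase, the proton pump of lysosomes, 7 rose and 1 fell (median 0.43), with 4 higher without Nrf2-null library 1. Among them was Atp6v1a at 31.6, 32.0 and 23.0 CPM against 84.1, 77.0 and 82.4 CPM. Of 43 autophagy genes 13 rose and 2 fell (median 0.24), with 6, 8 and 7 higher without Nrf2-null library 1, double-null library 1 and double-null library 2. The 2 lower became 0 without Nrf2-null library 1, Nrf2-null library 2 or double-null library 2 and 1 without Nrf2-null library 3 or double-null library 3. Pik3c3, the lipid kinase that starts autophagosome formation, was at 12.8, 15.9 and 13.7 CPM against 45.1, 46.0 and 42.1 CPM (log2 fold change 1.65 ± 0.14, adjusted p 5.32e-05). Lysosomal genes had 7 higher and 5 lower of 47 (14.9% and 10.6%), close to the 14.4% and 12.9% of all tested genes (2 lower without Nrf2-null library 3, 3 without double-null library 1 and 8 without miR-144/451-null library 3), and Psap, the precursor of saposins, fell by 1.06 ± 0.21 (adjusted p 0.00388). Rab GTPase genes had 8 higher and 5 lower of 45 (17.8% and 11.1%), also close to those shares, with a median of -0.04. Their higher count was 5 without Nrf2-null library 1, Nrf2-null library 3 or double-null library 1. Their lower count was 2 or 3 without any 1 of the Nrf2-null and double-null libraries.

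In metabolism and redox defence the counts were smaller, to be read against 14.4% higher and 12.9% lower of all tested genes. All 4 pentose phosphate genes called, of 14, were higher, namely Tkt, G6pdx, Taldo1 and Pgd. Tkt, the transketolase of that pathway, was at 255, 272 and 225 CPM in the Nrf2-null libraries and 460, 423 and 487 CPM in the double-null libraries (log2 fold change 0.86 ± 0.12, adjusted p 0.000668). G6pdx, its first enzyme, was at 42.5, 52.9 and 28.2 CPM against 70.0, 62.8 and 72.8 CPM (log2 fold change 0.74 ± 0.21, adjusted p 0.0246), and its adjusted p was 0.0521 to 0.0633 without Nrf2-null library 1 or 3 or double-null library 1 or 3. Of 34 glutathione, thioredoxin and peroxide genes 7 rose and 2 fell (median 0.18), the latter 1 without Nrf2-null library 2, double-null library 1 or double-null library 3. Prdx1, a peroxide-removing enzyme, was at 61.4, 59.5 and 44.7 CPM against 111, 109 and 139 CPM (log2 fold change 1.12 ± 0.16, adjusted p 0.000663). Chac2, which degrades glutathione, was at 134, 146 and 107 CPM against 55.7, 51.9 and 52.9 CPM, and it and Gpx1 were the 2 that fell. The letters TGACNNNGC, the core of the antioxidant response element that Nrf2 binds, occurred in 16.2% of promoters of higher genes, 15.8% of lower genes and 15.1% of all. Gstm5, a glutathione transferase, was the only called gene of its 14 family members (7.14%), at 20.8, 25.6 and 14.3 CPM against 75.5, 78.1 and 77.2 CPM. Of 22 glycolysis genes 6 rose and 2 fell (median 0.44), the latter 1 without either wild-type library, any 1 of the Nrf2-null libraries, double-null library 1 or double-null library 3. The symbol Aldoa belongs to 2 Ensembl identifiers in the table, and the more abundant one, at 58.2, 66.7 and 41.8 CPM against 166, 218 and 147 CPM, was higher. Of 29 sterol synthesis genes 7 rose and 1 fell (median 0.38), with 4 higher without Nrf2-null library 3. The lower gene was Fdft1, the squalene synthase (log2 fold change -1.17 ± 0.22). Acadvl, which starts the oxidation of long fatty acids, rose by 1.58 ± 0.14 (adjusted p 5.41e-05).

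Genes of the red cell program differed by group, to be read against 14.4% higher and 12.9% lower of all tested genes. Of 8 globin and globin chaperone genes none rose and 2 fell, Hbb-y and the theta globin gene Hbq1b, with a median of 0.15. The Hbq1b call was lost without Nrf2-null library 2 or 3 or double-null library 2 or 3 (adjusted p 0.0855 to 0.132). Of 27 heme synthesis genes 2 rose and 3 fell (7.41% and 11.1%, both under the shares of all tested genes, median 0.02). The 3 lower became 0 without double-null library 3 and 1 without any 1 of the other 5 Nrf2-null and double-null libraries. The 2 higher became 1 without any 1 of these 6 except double-null library 2, and without wild-type library 1 or miR-144/451-null library 3. Of 31 genes of the red cell membrane skeleton 13 fell (41.9%) and 2 rose (6.45%), with 8 lower without double-null library 3 (median -0.43). Dmtn, which bundles actin at the membrane, was at 1692, 1522 and 1597 CPM in the Nrf2-null libraries and at 1015, 858 and 839 CPM in the double-null libraries (log2 fold change -0.83 ± 0.16, adjusted p 0.00377). Dmtn was named for a small p, so the gap is no result. Tmod3, which caps actin filaments, moved the other way, at 54.9, 51.7 and 48.6 CPM against 151, 118 and 134 CPM (log2 fold change 1.38 ± 0.17, adjusted p 0.000324). Iron handling had 4 lower (26.7%) and 1 higher (6.67%) of 15. The importer Slc11a2 was at 216, 199 and 205 CPM against 146, 101 and 130 CPM. Tfr2, a second transferrin receptor, was at 67.1, 74.2 and 61.2 CPM against 138, 116 and 138 CPM. The letters AGATAA, bound by Gata1, occurred in 5 of 22 skeleton promoters (22.7%) and 6.73% of all.

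The remaining functional groups had calls in both directions, to be read against 14.4% higher and 12.9% lower of all tested genes. Of 68 spliceosome genes 12 rose and 5 fell (median 0.16), with 7 higher without Nrf2-null library 3 or double-null library 3. The 5 lower became 2 without Nrf2-null library 2, Nrf2-null library 3 or double-null library 2 and 3 without wild-type library 1 or miR-144/451-null library 3. Srsf9, a splicing regulator with a miR-451a site, was at 24.4, 23.4 and 23.3 CPM in the Nrf2-null libraries and at 42.4, 35.7 and 45.5 CPM in the double-null libraries. Of 28 nuclear pore genes 6 fell and 2 rose (median -0.11), the latter 1 without any 1 of the 10 libraries except double-null library 2, with Nup210, a membrane ring protein, at 508, 426 and 528 CPM against 288, 247 and 279 CPM (log2 fold change -0.85 ± 0.13, adjusted p 0.00104). The groups did not overlap in either gene. Of 23 cytosolic tRNA synthetase genes 7 (30.4%) rose and 1 fell (median 0.16), the latter 2 without Nrf2-null library 3. Of 30 p53 target genes 5 rose and 4 fell (median 0.05), and 3 and 2 were higher without Nrf2-null library 3 and double-null library 2. Btg2, a p53 target that slows division, was at 565, 607 and 784 CPM against 314, 309 and 288 CPM (log2 fold change -1.10 ± 0.15, adjusted p 0.000427). In the Bcl2 family, which sets the threshold of cell death, 3 of 16 rose and 3 fell. The higher count was 1 without Nrf2-null library 2, Nrf2-null library 3, double-null library 1 or either wild-type library, and the lower count 1 without Nrf2-null library 3 or double-null library 3. Bak1, a killer protein of the mitochondrial membrane, was at 14.0, 11.1 and 11.1 CPM against 23.9, 18.2 and 20.5 CPM. Of 49 actin and enucleation genes 10 (20.4%) rose and 7 (14.3%) fell (median -0.18), the latter 4, 12 and 4 without Nrf2-null library 3, double-null library 2 and double-null library 3. Lmnb1, a lamin of the nuclear envelope, was at 416, 331 and 555 CPM against 151, 147 and 158 CPM (log2 fold change -1.52 ± 0.18, adjusted p 0.000208), and Myh10, a nonmuscle myosin, at 320, 299.8 and 414 CPM against 159.98, 127 and 130.5 CPM.

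Interferon-stimulated genes were lower, to be read against 12.9% lower and 14.4% higher of all tested genes. Of 47 tested, 35 fell and none rose, with a median log2 fold change of -1.45. Samd9l, an antiviral and growth-restraining gene, was at 113, 77.1 and 115 CPM in the Nrf2-null libraries and at 16.4, 26.7 and 28.7 CPM in the double-null libraries (log2 fold change -2.09 ± 0.28, adjusted p 0.000682). Dhx58, a helicase that tunes RNA sensing, was at 30.6, 21.3 and 33.2 CPM against 4.09, 5.85 and 4.40 CPM (log2 fold change -2.57 ± 0.40, adjusted p 0.00157). The groups did not overlap in either gene. Of 30 genes of the major histocompatibility complex and its loading 21 fell and none rose (median -1.61). B2m, the light chain of class I molecules, was at 776, 535 and 1075 CPM against 306, 329 and 384 CPM (log2 fold change -1.23 ± 0.23, adjusted p 0.00277), and the peptide transporter Tap1 was at 70.0, 48.9 and 98.2 CPM against 15.3, 23.9 and 17.1 CPM (log2 fold change -1.94 ± 0.29, adjusted p 0.0011). In the male libraries alone, which leaves 2 double-null libraries, 16 interferon-stimulated genes and 11 histocompatibility genes were lower. Of 12 B cell markers 11 fell, and their summed level was 1138, 993 and 1146 CPM in the Nrf2-null and 361, 796 and 411 CPM in the double-null libraries. Summed macrophage markers were 474, 381 and 1269 CPM against 101, 258 and 451 CPM, with 1 of 14 lower, and the part of these cells in the falls was not tested. The interferon response element, a repeat of GAAA with a short spacer, occurred in 15 of 33 interferon-stimulated promoters (45.5%) and in 3.35% of all. That of Stat2, a transcription factor of interferon signalling, is printed with those letters in capitals, from chr10:128270251-128270310 on the plus strand.
Stat2: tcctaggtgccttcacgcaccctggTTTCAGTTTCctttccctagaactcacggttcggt

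**Figure D2:**
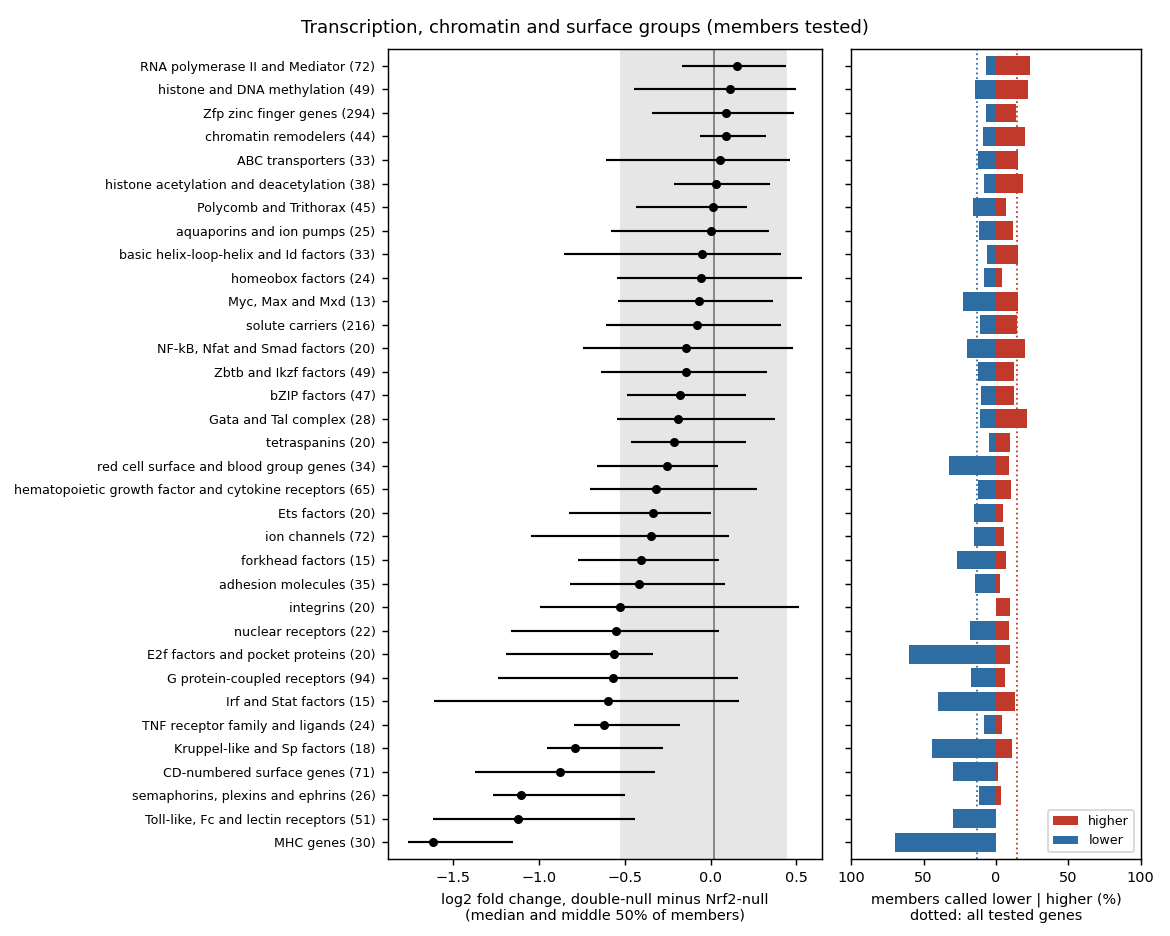
The plot gives the same medians (log2 fold change, double-null over Nrf2-null, x axis) and percentages for the transcription and chromatin groups and for the surface groups. Kruppel-like, Irf and Stat, and E2f factors (medians -0.79, -0.60 and -0.56) lie to the left among the first. Histocompatibility, Toll-like, semaphorin and CD genes (medians -1.61, -1.12, -1.10 and -0.87) lie to the left among the second.

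Across the transcription and chromatin groups, 124 of 860 tested genes rose and 107 fell, with a median log2 fold change of 0.00. These shares, 14.4% and 12.4%, were close to those of all genes, while single families differed. Of 20 E2f family and pocket protein genes, which time entry into S phase, 12 fell and 2 rose (median -0.56). E2f8, an atypical repressor of the family, was at 477, 407 and 525 CPM in the Nrf2-null libraries and at 154, 111 and 200 CPM in the double-null libraries (log2 fold change -1.60 ± 0.21, adjusted p 0.000391). E2f6, another repressor, was at 47.1, 48.9 and 47.0 CPM against 14.1, 17.0 and 15 CPM (log2 fold change -1.63 ± 0.13, adjusted p 4.17e-05). Foxm1, which drives mitotic genes, was at 231, 175 and 224 CPM against 95.7, 63.5 and 74.4 CPM (log2 fold change -1.43 ± 0.17, adjusted p 0.000226). These genes were chosen by a small p or a large change, so their separation is no result. The 2 higher members were Lin37, of the repressor complex that binds cell cycle promoters in resting cells, and the pocket protein gene Rbl2, at 30.7, 30.4 and 31.4 CPM against 80.7, 73.6 and 55.6 CPM (log2 fold change 1.18 ± 0.16, adjusted p 0.000415).

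Erythroid factors moved in both directions, to be read against 14.4% higher and 12.9% lower of all tested genes. Of 18 Kruppel-like and Sp factors 8 fell and 2 rose, Klf7 and Klf9 (median -0.79). Klf1, the master factor of adult globin and red cell genes, was at 588, 547 and 541 CPM in the Nrf2-null libraries and at 273, 210 and 299 CPM in the double-null libraries (log2 fold change -1.10 ± 0.16, adjusted p 0.000784). Klf3, a repressor that acts on Klf1 targets, was at 988, 765 and 851 CPM against 447, 321 and 295 CPM (log2 fold change -1.29 ± 0.20, adjusted p 0.00107). Both were chosen by a small p or a large change, so the gap is no result. In the Gata and Tal complex 6 of 28 rose (21.4%) and 3 fell (10.7%), with a median of -0.19. Those that fell were Gfi1b, Nfe2 and Tal1, and 3 rose without Nrf2-null library 2 or double-null library 1. The lower count was 1 without Nrf2-null library 1, double-null library 1 or double-null library 3. Gfi1b, a repressor needed for red cell and platelet development, was at 142, 146 and 112 CPM against 62.7, 44.1 and 74.7 CPM (log2 fold change -1.14 ± 0.18, adjusted p 0.00129), and Cbfa2t3, a corepressor of the complex, was at 80.1, 66.0 and 48.8 CPM against 139, 133 and 111 CPM (log2 fold change 0.97 ± 0.18, adjusted p 0.00263). Nr3c1, the glucocorticoid receptor that sustains stress erythropoiesis, fell by 0.85 ± 0.13 (adjusted p 0.000957). Myc, the growth factor-responsive oncogene, was at 49.5, 37.9 and 32.0 CPM against 8.25, 24.4 and 14.3 CPM (log2 fold change -1.35 ± 0.36, adjusted p 0.0221), and its adjusted p was 0.0712 without Nrf2-null library 1 and 0.0732 without double-null library 3.

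Factors of immune cells fell with the B cell markers given above. Spib, a B cell and dendritic cell Ets factor, was at 25.6, 22.0 and 36.5 CPM in the Nrf2-null libraries and at 4.61, 8.89 and 3.96 CPM in the double-null libraries (log2 fold change -2.27 ± 0.43, adjusted p 0.0047). Irf4, a factor of B cells and plasma cells, was at 73.5, 60.1 and 95.3 CPM against 14.6, 36.6 and 14.6 CPM (log2 fold change -1.80 ± 0.34, adjusted p 0.00458). Double-null library 2 was the highest of its group in both genes, as it was for the summed B cell markers. Of 15 Irf and Stat genes 6 fell (40%) and 2 rose (13.3%), against 12.9% and 14.4% of all tested genes. Their median was -0.60, and 2 were lower in the male libraries alone. Irf7, the amplifier of the interferon response, was at 306, 210 and 351 CPM against 70.3, 105 and 65.3 CPM (log2 fold change -1.85 ± 0.44, adjusted p 0.0134), and its adjusted p was 0.052 without double-null library 1. The 2 higher ones were Stat3 and Stat6, signal transducers of cytokine receptors, with Stat3 at 45.9, 41.2 and 45.4 CPM against 64.2, 84.4 and 85.2 CPM. In the NF-kB, Nfat and Smad group Rela, Relb, Nfkb2 and Nfat5 rose and Rel, Nfkbie, Nfatc1 and Nfatc2 fell. These are 20% each way of 20 tested, with 2 lower without double-null library 1. Rela, the widely made NF-kB subunit, was at 55.9, 49.2 and 59.1 CPM against 171, 130 and 117 CPM (log2 fold change 1.35 ± 0.23, adjusted p 0.00214). The call for Relb (1.39 ± 0.40, adjusted p 0.0309) was lost without any 1 of Nrf2-null libraries 1 or 2 or double-null libraries 1 or 2, with adjusted p from 0.0545 to 0.0965.

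**Figure D3:**
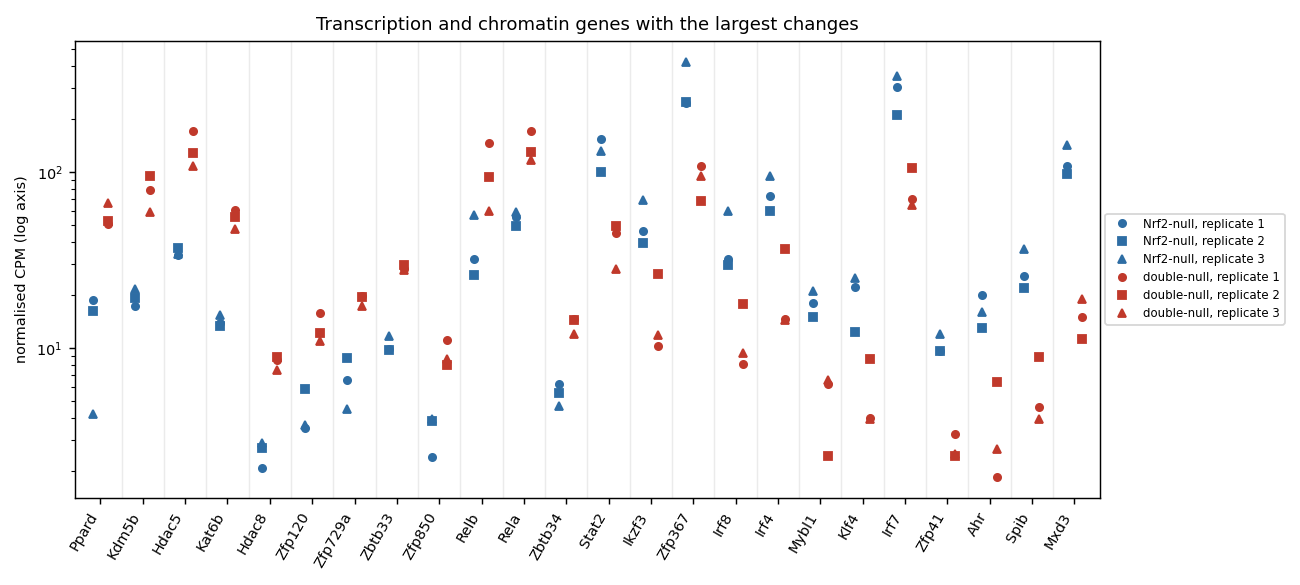
Normalised CPM on a log axis of the named transcription and chromatin genes in each of the 3 Nrf2-null and 3 double-null libraries, 1 point a library. The genes drawn were selected for no overlap between the 2 groups, so the lack of overlap is no result. Ppard has its lowest point, 4.21 CPM, in Nrf2-null library 3.

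Several chromatin enzymes were among the larger rises. Kdm5b, a demethylase of histone H3 lysine 4, was at 17.3, 19.4 and 21.7 CPM in the Nrf2-null libraries and at 79.1, 95.0 and 59.2 CPM in the double-null libraries (log2 fold change 2.00 ± 0.19, adjusted p 7.55e-05). Hdac5, a class II deacetylase, was at 33.9, 37.2 and 34.4 CPM against 172, 129 and 108 CPM (log2 fold change 1.95 ± 0.17, adjusted p 5.32e-05). Kat6b, an acetyltransferase, was at 14.0, 13.3 and 15.4 CPM against 60.7, 55.5 and 47.5 CPM (log2 fold change 1.94 ± 0.16, adjusted p 5.32e-05). All of these were chosen by a small p or by a large change without overlap, so their separation is no result. The group counts that follow are to be read against 14.4% higher and 12.9% lower of all tested genes. Of 49 histone and DNA methylation genes 11 rose and 7 fell, of 44 remodeler genes 9 rose and 4 fell, and of 45 Polycomb and Trithorax genes 3 rose and 7 fell. The last count was 3, 3 and 4 without Nrf2-null library 1, Nrf2-null library 3 and double-null library 1, and the 4 remodelers became 2, 1, 2 and 2 without Nrf2-null library 1, Nrf2-null library 3, double-null library 1 and miR-144/451-null library 3. Pcgf5, a Polycomb ring finger gene, was at 95.5, 88.0 and 119 CPM against 48.8, 46.0 and 47.8 CPM (log2 fold change -1.08 ± 0.13, adjusted p 0.000288). Of 72 genes of RNA polymerase II and Mediator 17 rose and 5 fell. Of 294 Zfp zinc finger genes 40 rose and 21 fell (13.6% and 7.14%, median 0.09). The higher count was 25 and 22 without Nrf2-null library 3 and double-null library 1. The lower count was 11, 13 and 10 without Nrf2-null library 1, double-null library 2 and double-null library 3. Ppard, a nuclear receptor for fatty acids, was at 18.8, 16.2 and 4.21 CPM against 50.6, 53.1 and 67.1 CPM (log2 fold change 2.12 ± 0.46, adjusted p 0.00982). The Ets letters CCGGAAG occurred in 423 of 1546 promoters of higher genes (27.4%), 175 of 1347 of lower genes and 18.9% of all.

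Of 777 tested genes in the surface groups 65 (8.37%) rose and 137 (17.6%) fell, against 14.4% and 12.9% of all tested genes, with a median log2 fold change of -0.42. Of 71 genes named for CD antigens 21 fell and 1 rose (median -0.87), with 13 lower in the male libraries alone, 2 higher without Nrf2-null library 2 and medians of -1.31 to -0.54 with 1 of the 6 libraries left out. Beside the B cell and macrophage sums above, summed T cell markers were 71.2, 90.2 and 95.9 CPM in the Nrf2-null libraries and 15.6, 71.7 and 39.6 CPM in the double-null libraries, with 1 of 12 lower (median -0.89). Summed NK cell markers were 32.6, 38.3 and 46.8 CPM against 11.7, 34.9 and 11.0 CPM, with 3 of 10 lower (median -1.36). None of these markers rose, the sums of both overlapped between groups, and the part of these cells in the falls was not tested. Of 51 Toll-like, Fc and lectin receptor genes 15 fell and none rose (median -1.12), but 7, 5 and 5 were lower without Nrf2-null library 1, Nrf2-null library 3 and double-null library 1. Without Nrf2-null library 3, where summed macrophage markers were highest, the median was -0.63. Axl, a receptor that clears dying cells, was at 55.4, 45.6 and 190 CPM in the Nrf2-null libraries and at 9.96, 26.1 and 35.7 CPM in the double-null libraries. Its adjusted p of 0.0442 became 0.111 without Nrf2-null library 3 and 0.0702 to 0.114 without double-null library 1, double-null library 2 or any 1 of the 4 libraries with Nrf2. Cd83 and Cxcr5, both of B cells and dendritic cells, fell by 2.13 ± 0.36 (adjusted p 0.00242) and 2.45 ± 0.47 (adjusted p 0.00411). Cxcr4, the receptor that retains blood precursors in marrow, was at 143, 121 and 174 CPM against 39.3, 42.6 and 39.1 CPM (log2 fold change -1.86 ± 0.17, adjusted p 7.85e-05). Of 94 G protein-coupled receptor genes 16 fell and 6 rose (median -0.57), with 10, 7, 7 and 6 lower without Nrf2-null library 1, Nrf2-null library 3, double-null library 1 and double-null library 3. The 6 higher became 3, 3 and 2 without Nrf2-null library 1, Nrf2-null library 2 and double-null library 1.

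**Figure D4:**
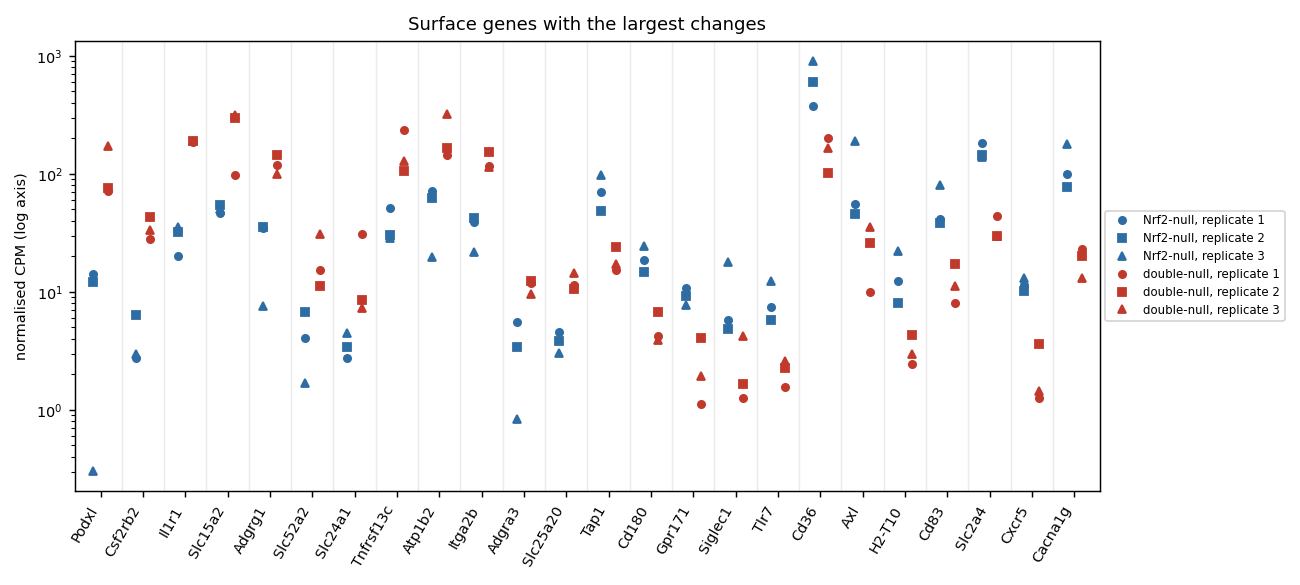
Normalised CPM on a log axis of the named surface genes in each Nrf2-null and double-null library, 1 point a library. The genes drawn were selected for no overlap between the groups, and Cacna1g, Slc2a4 and Cd36 are among the lower ones. Podxl has its lowest point, 0.31 CPM, in Nrf2-null library 3.

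On the red cell surface 11 of 34 genes fell and 3 rose (median -0.25), the latter being Abcc4, Smim1 and Aqp3, and 7 fell without double-null library 3. Aqp1, the water channel of red cells, was at 3101, 2754 and 3770 CPM in the Nrf2-null libraries and at 2090, 1352 and 1557 CPM in the double-null libraries (log2 fold change -0.95 ± 0.19, adjusted p 0.00389). Cd55, which protects red cells from complement, was at 116, 120 and 114 CPM against 55.7, 53.3 and 53.5 CPM (log2 fold change -1.11 ± 0.15, adjusted p 0.000427). Neither gene's groups overlapped, but both were chosen by a small p or a large change. Cd36, a fatty acid and thrombospondin receptor of young erythroid cells, was at 378, 603 and 900 CPM against 203, 102 and 166 CPM (3.99-fold lower, adjusted p 0.00253). Slc2a4, the insulin-responsive glucose transporter Glut4, was at 183, 146 and 139 CPM against 44.3, 29.5 and 29.5 CPM (log2 fold change -2.18 ± 0.20, adjusted p 6.5e-05). Cacna1g, a T-type calcium channel, was at 99.4, 77.1 and 178 CPM against 23.0, 20.2 and 13.1 CPM (log2 fold change -2.65 ± 0.32, adjusted p 0.000459). These 3 genes were selected among surface genes without overlap between groups. Kcnn4, the Gardos potassium channel that sets red cell water content, fell by 1.00 ± 0.14 (adjusted p 0.000586), and the lactate carrier Slc16a1 by 1.04 ± 0.15 (adjusted p 0.000566). Of 216 solute carrier genes 31 rose and 24 fell (14.4% and 11.1%, median -0.08), close to the 14.4% and 12.9% of all tested genes. The higher count was 17 to 20 without Nrf2-null libraries 1, 2 or 3 or double-null library 1.

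Among the surface genes that rose, Il1r1, the signalling receptor of interleukin-1, was at 20.3, 32.0 and 35.2 CPM in the Nrf2-null libraries and at 185, 188 and 189 CPM in the double-null libraries (log2 fold change 2.68 ± 0.19, adjusted p 4.13e-05). Csf2rb2, a beta chain of the interleukin-3 receptor, was at 2.76, 6.32 and 2.98 CPM against 27.9, 43.2 and 33.2 CPM (log2 fold change 3.11 ± 0.30, adjusted p 8.73e-05), with 30.1% of its 31-base stretches shared with another gene. Both were chosen by a small p or by a large change without overlap, so their separation is no result. Podxl, a sialomucin of blood precursors and megakaryocytes, was at 14.2, 12.2 and 0.31 CPM against 71.2, 76.2 and 171 CPM (log2 fold change 3.57 ± 0.86, adjusted p 0.0182), and its adjusted p was 0.0507 without miR-144/451-null library 3. Itga2b, the platelet and early progenitor integrin CD41, was at 39.1, 42.0 and 21.6 CPM against 116, 153 and 114 CPM (log2 fold change 1.90 ± 0.29, adjusted p 0.00152). Adgrg1, an adhesion receptor of blood stem cells, was at 34.8, 35.1 and 7.65 CPM against 118, 143 and 100.1 CPM. Nrf2-null library 3 was the lowest in these 3 genes. The megakaryocyte and platelet markers, Itga2b among them, summed to 109, 96.4 and 71.2 CPM in Nrf2-null libraries 1 to 3. They summed to 156, 201 and 149.9 CPM in double-null libraries 1 to 3, with 2 of 10 tested higher and 1 lower. The neutrophil sum and the mast cell and basophil sum given above were also lowest in Nrf2-null library 3. The part of any of these cells in the rises was not tested. Tnfrsf13c, the Baff receptor of B cells, rose while the B cell markers fell, at 50.9, 30.2 and 28.8 CPM against 234, 105 and 129 CPM (log2 fold change 2.09 ± 0.51, adjusted p 0.0154). Its adjusted p was 0.0551 without double-null library 1.

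Receptors and channels of other families were mixed, to be read against 14.4% higher and 12.9% lower of all tested genes. Of 65 growth factor and cytokine receptor genes 7 rose and 8 fell (median -0.32), with 5, 5, 4 and 5 lower without Nrf2-null library 1, Nrf2-null library 3, double-null library 1 and wild-type library 3. Bmpr2, a receptor of bone morphogenetic proteins, was at 8.61, 7.22 and 5.66 CPM in the Nrf2-null libraries and at 20.2, 19.98 and 19.7 CPM in the double-null libraries (log2 fold change 1.48 ± 0.20, adjusted p 0.000459). Itga2b and Itgb7 were the 2 of 20 integrin genes that rose, and none fell (median -0.52), but 4 fell without double-null library 2. Itgb7, a gut-homing integrin chain, was at 29.9, 38.3 and 27.2 CPM against 73.4, 59.3 and 81.8 CPM. Of 72 ion channel genes 4 rose and 11 fell (median -0.35), with 7 lower without Nrf2-null library 3, double-null library 1 or double-null library 3 and 2 higher without Nrf2-null library 2. Of 26 semaphorin, plexin and ephrin genes 1 rose and 3 fell (median -1.10), the latter 1 without Nrf2-null library 1 or double-null library 3 and 5 without either miR-144/451-null library. The riser, the semaphorin receptor gene Plxnc1, was at 29.7, 27.7 and 22.9 CPM against 52.9, 74.9 and 75.9 CPM (log2 fold change 1.34 ± 0.23, adjusted p 0.00182). Of 33 ABC transporter genes 5 rose and 4 fell. The higher count was 2 without Nrf2-null library 3 and 3 without Nrf2-null library 1, double-null library 1 or double-null library 2, and the lower count was 2 without Nrf2-null library 1, Nrf2-null library 3, double-null library 1 or either wild-type library. Abcg4, a sterol exporter, was at 259, 235 and 265 CPM against 143, 95.3 and 145 CPM (log2 fold change -0.98 ± 0.17, adjusted p 0.00215).

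Whether the cluster's loss acted differently without Nrf2 was tested as the double-null to Nrf2-null difference minus the miR-144/451-null to wild-type difference. Only 9 genes (0.0638%) passed at an adjusted p of 0.05, while 629 had an unadjusted p under 0.05, and DESeq2 called 24. Since both wild-type libraries read as female and both miR-144/451-null libraries as male, sex enters this test, and with a term for sex 2 genes passed, Fgfrl1 and Gm8730. In the pair with Nrf2 present 653 genes passed (4.63%; 2.40% higher and 2.23% lower), with fewer libraries, so the counts of the 2 comparisons are not a measure of a difference. With a term for sex, which there rests on double-null library 3, 1 gene passed. Mitosis genes there had a median log2 fold change of -0.77 with 35 of 67 lower and 0 lower with the term for sex, and none of them passed the test of the difference.

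Fgfrl1 passed it with a difference of 4.33 ± 0.28 on the log2 scale (adjusted p 4.95e-05). It was at 45.5 and 47.2 CPM in the wild-type libraries, 64.6 and 51.2 CPM in the miR-144/451-null libraries and 75.9 to 84.5 CPM in the double-null libraries, so the Nrf2-null libraries, at 2.33 to 4.10 CPM, stood apart from the other 3 genotypes. Idua, a lysosomal enzyme of glycosaminoglycan breakdown and 3 gene places from Fgfrl1 on chromosome 5 in RefSeq, had the same shape, at 1.88, 2.41 and 2.75 CPM in the Nrf2-null libraries, 13.3, 15.6 and 15.2 CPM in the double-null libraries and 10.1 to 15.4 CPM in the others (difference 2.13 ± 0.31, adjusted p 0.0397, and 0.956 with a term for sex). Naip5, an inflammasome sensor of flagellin, was at 5.18, 4.59 and 9.56 CPM in the Nrf2-null and 2.23, 4.18 and 4.32 CPM in the double-null libraries, at 5.04 and 6.03 CPM in the wild type and at 0 in both miR-144/451-null libraries, so its difference of 8.44 ± 1.13 (adjusted p 0.0397) came from the latter pair. Its neighbour Naip2 on chromosome 13 behaved alike (4.04 ± 0.46, adjusted p 0.00923), and with a term for sex the adjusted p was 0.552 for Naip5 and 0.215 for Naip2. Of the 31-base stretches of Naip5 and Naip2, 52.6% and 32.7% occur in other genes. AA465934 was at 2.73 and 3.18 CPM in the wild type and at 14.4 to 21.3 CPM in all other libraries, with an adjusted p of 0.287 with a term for sex. Cfap74, a gene of cilia, and the adjacent 5830444B04Rik on chromosome 4 had counts summing to 150 and 99 in the Nrf2-null libraries and to 1 each in the double-null libraries.

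**Figure D5:**
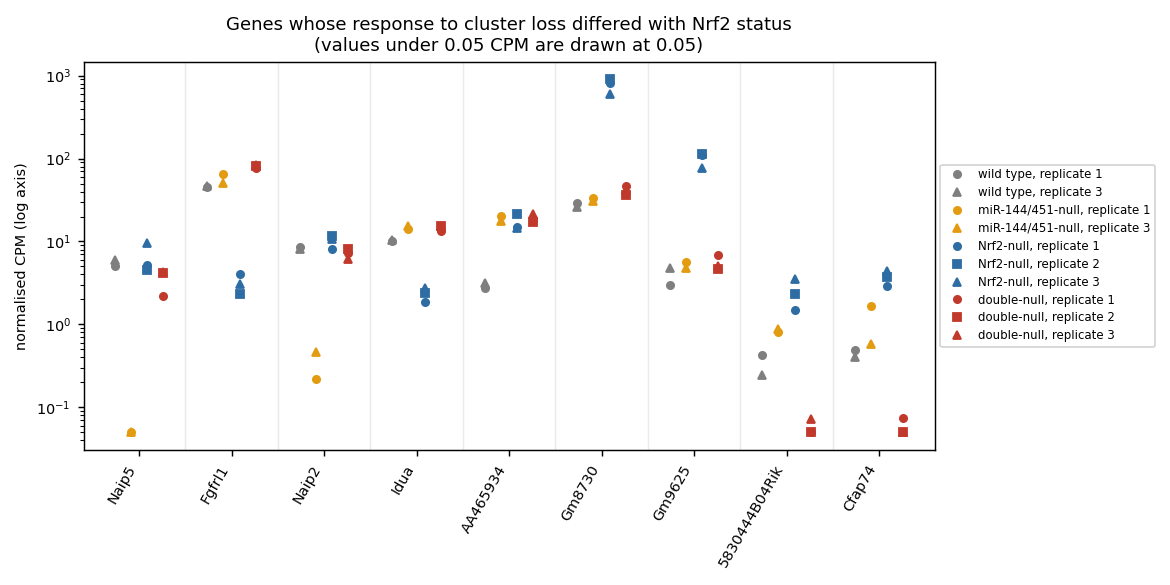
Normalised CPM of the genes that passed the test of a different effect of cluster loss without Nrf2, in all 10 libraries grouped by genotype, 1 point a library. Fgfrl1 and Idua are low in the 3 Nrf2-null libraries, and Naip5 is at 0 in both miR-144/451-null libraries.

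The remaining 2 genes, Gm8730 and Gm9625, share sequence with Rplp0, a protein of the ribosomal stalk, and must be read together with it. Of the 31-base stretches of Gm8730, 62.8% occur in Rplp0. Rplp0 was at 743, 808 and 544 CPM in the Nrf2-null libraries and at 2314, 2092 and 2402 CPM in the double-null libraries, a log2 fold change of 1.70 ± 0.17. Gm8730 moved the opposite way, at 805, 900 and 602 CPM against 47.3, 36.8 and 42.0 CPM. The 3 genes summed to 1657, 1822 and 1222 CPM in the Nrf2-null libraries, 2369, 2133 and 2449 CPM in the double-null libraries, 1606 and 1593 CPM in the wild type and 2112 and 1845 CPM in the miR-144/451-null libraries. The sums of the Nrf2-null and double-null libraries did not overlap, but the level of each single gene is uncertain because reads can be counted to either copy.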

How the data were processed

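Messenger RNA was measured in 10 libraries, of which the 3 double-null and 3 Nrf2-null libraries were compared. The authors deposited raw counts per Ensembl gene, and these counts were used as deposited. The deposited per-library normalized values were not used. Per the submitters' processing notes, HISAT2 2.1.0, Bowtie2 2.2.3, TopHat2 and CASAVA were used and the build was mm9, with no role given for each tool. Which counter, gene annotation and strandedness were used is not given in the sources used here, so reads of overlapping or antisense genes cannot be told apart.

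All 10 libraries were fitted together in R 4.3.3 with edgeR 4.0.16 (filterByExpr, TMM factors, robust quasi-likelihood test, two-sided), with 6 residual degrees of freedom and a threshold of 0.05 on the Benjamini-Hochberg adjusted p. The fit was tested on simulated data. Levels are CPM normalised with the TMM factors. Depth in the 6 libraries was 13746381 to 15131036 counts, and the floor of 3 counts covers counting error only. Replicate pairs all differed beyond sampling noise (chi-square over genes at least 17.3 times its degrees of freedom).

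The members and the 78 gene groups were chosen with earlier results of these data known, and patterns that matched unrelated symbols were corrected after the data were seen. Groups are described by counts and medians with no test. Named genes are, per group, up to 4 called members with the smallest p and a mean of at least 5 CPM. To these were added up to 12 per direction with the largest change and no overlap, overall and within the transcription and surface groups, the genes of the interaction test, Mir144, Mir451a and Nfe2l2. Members named because 5 or fewer of a group were called, and Cfap74, 5830444B04Rik, AA465934, Naip2, Gm8730 and Gm9625, were chosen after their values were seen. Shared 31-base stretches, 3' UTRs and seed sites come from GENCODE M21, and microRNAs, promoters and gene order from RefSeq GRCm38.p6; no coordinate of the files' build is given. Alternatives were DESeq2 1.42.0, other scalings and filters, the 6 libraries alone, a replicate block, a term for sex, male libraries alone and leaving out each library.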

Additional observations from a re-analysis of the deposited data

Results flagged for a closer look

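The effect of cluster loss differed between libraries labelled without and with Nrf2 for 9 genes by the test of the difference itself (edgeR, adjusted p under 0.05). With Nrf2 present both wild-type libraries read as female and both miR-144/451-null libraries as male, and with a term for sex 2 of the 9, Fgfrl1 and Gm8730, passed. Of the 7 genes with a mean of at least 5 CPM, the log2 difference between the 2 effects was positive for Fgfrl1 (4.33), Idua (2.13), Naip5 (8.44) and Naip2 (4.04) and negative for Gm8730 (-4.41), Gm9625 (-4.61) and AA465934 (-2.53). It was -7.47 for 5830444B04Rik and -8.07 for Cfap74, which had lower levels. The Naip5 value rests on 2 miR-144/451-null libraries with no count, and the last 2 on 1 count each in the double-null libraries, so their sizes depend on the prior count and are no bound.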

How the results depend on the processing

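The total of 3850 called genes, the 2025 higher and the 1631 at least 2-fold stayed within 1.5 times under all 20 alternatives, and the 1825 lower under 19 of 20. The exception was the male libraries alone, with 1091 lower. Leaving out 1 of the 10 libraries gave 2646 to 3929 called genes, 1371 to 2026 higher, 1255 to 1957 lower and 1216 to 1778 at least 2-fold. The interaction count of 9 became 232 with no filter on low counts, 24 with DESeq2, 5 with a mean of at least 5 CPM, 5 with a replicate block and 2 with a term for sex, and 3 to 12 with 1 library left out. The cause was not tested.

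A replicate block gave 3471 called genes, 1713 higher and 1758 lower. Deviations of same-numbered Nrf2-null and double-null libraries 1 to 3 correlated at 0.08, -0.11 and -0.11. The highest correlations with another number were 0.05, 0.11 and 0.15. With 3 libraries a group these values cannot decide whether the numbers pair the libraries. Of 321 named genes with a call, 278 kept it in every alternative that tested them, 43 lost it in at least 1 and none reversed. The median of all genes stayed between 0.00 and 0.04. At 3 libraries a group and this depth, genes with few counts, Mir451a among them, could not be compared.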
